A study of Homo sapiens with 4 samples.

Results

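The EGF receptor family and its ligands were followed as 9 genes out of 62710 in the deposited table, chosen by symbol for their place in the pathway. These genes were chosen with earlier results of these data known. They are the receptors EGFR, ERBB2 and ERBB3, the ligands AREG, EREG, HBEGF and TGFA, the sheddase ADAM17, and the feedback inhibitor ERRFI1. Messenger RNA had been sequenced from human gastric cancer cell lines in 4 groups of 1 library each: HGC27 in 0.3 µM periplocymarin, HGC27 in 0.1% DMSO, MKN45 in 0.3 µM periplocymarin and MKN45 in 0.1% DMSO, all for 24 h. Periplocymarin is a cardiac glycoside, a plant steroid that blocks the Na,K-ATPase. The DMSO libraries are called vehicle here, although the labels do not say whether the periplocymarin cultures held DMSO too. HGC27 is an undifferentiated line and MKN45 a poorly differentiated adenocarcinoma line, both grown from metastases. Since every group is a single library, differences inside a line cannot be checked against replicates and carry no p-value.

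ERBB receptors are membrane tyrosine kinases that work in pairs. EGFR binds AREG, EREG, HBEGF and TGFA, while ERBB2 has no known ligand and ERBB3 has little kinase activity of its own and binds neuregulins. The ligands are made as membrane-anchored precursors, which ADAM17 cuts free, and ERRFI1 (also known as MIG6) binds the active EGFR kinase and blocks it. In epithelia, including that of the stomach, this system drives growth and repair.

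AREG and EREG are neighbours on chromosome 4 and had the largest treated over vehicle ratios of the 9 genes in MKN45, whereas HBEGF, on chromosome 5, was lower in the treated library. The RefSeq promoter windows of these 3 ligand genes (GRCh38.p14, 250 bases before to 50 after the start, written 5′ to 3′ on the gene's strand) are shown so that the start regions of ligands that moved differently can be compared. Capitals mark matches, on either strand, to any of 4 motifs that share no letters in these windows. The cyclic AMP response element was searched as TGACGTCA. The site of AP-1 was searched as TGANTCA and that of the TEAD factors as GGAATG, which reads CATTCC from the other strand. The TATA box was searched as TATAAA. The windows are chr4:74444886-74445185 on the plus strand for AREG, chr4:74364895-74365194 on the plus strand for EREG and chr5:140346554-140346853 on the minus strand for HBEGF.
AREG: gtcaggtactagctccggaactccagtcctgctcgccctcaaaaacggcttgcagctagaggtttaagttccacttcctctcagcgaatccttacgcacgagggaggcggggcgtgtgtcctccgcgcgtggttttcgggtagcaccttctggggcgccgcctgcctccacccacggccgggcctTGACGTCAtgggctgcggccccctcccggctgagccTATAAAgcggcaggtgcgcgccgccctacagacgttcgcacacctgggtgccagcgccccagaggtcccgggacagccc
EREG: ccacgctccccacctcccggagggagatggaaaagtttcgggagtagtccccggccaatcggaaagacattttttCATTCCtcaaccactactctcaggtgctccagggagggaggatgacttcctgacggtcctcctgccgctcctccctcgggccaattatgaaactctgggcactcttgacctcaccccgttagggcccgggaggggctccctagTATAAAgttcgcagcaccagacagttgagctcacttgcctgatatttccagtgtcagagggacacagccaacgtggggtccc
HBEGF: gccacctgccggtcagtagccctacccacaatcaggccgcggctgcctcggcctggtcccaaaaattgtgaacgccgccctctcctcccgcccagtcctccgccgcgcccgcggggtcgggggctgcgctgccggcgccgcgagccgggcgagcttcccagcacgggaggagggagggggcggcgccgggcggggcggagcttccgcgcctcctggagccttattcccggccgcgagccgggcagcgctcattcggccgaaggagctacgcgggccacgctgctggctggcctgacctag
The AREG window held TGACGTCA, found in 1.85% of 35116 promoter windows of this length, and a TATAAA match. The EREG window held TATAAA, found in 11.5% of them, and a GGAATG match on the minus strand, found in 14.0%. TGANTCA, found in 7.71% of windows, was in none of the 3, and none of the 4 motifs was in the HBEGF window. The 2 RefSeq windows of TGFA, the other ligand higher in treated MKN45, are not shown and their matches were not listed. The comparison thus covers 3 of the 4 ligands. These are letter matches in a short window, and binding was not measured.

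Reads recovered from the deposited values numbered between 24884061 and 36563517 a library. Levels are FPKM, that is reads or fragments scaled to the length of the gene and the size of the library, so genes can be compared with each other. In bulk RNA, fewer cells that make a transcript and less of it per cell cannot be told apart. Intervals are exact 95% intervals that cover counting error only. MKN45 held all 6 epithelial markers examined (EPCAM, CDH1, KRT8, KRT18, KRT19 and CLDN4) at 23.7 FPKM or more in both libraries. In HGC27 none of them exceeded 0.210 FPKM, with EPCAM at 0 after treatment, while of 5 mesenchymal markers VIM, ZEB1, FN1 and SPARC were above 1 FPKM and CDH2 was at 0 in treated and 0.0433 FPKM in vehicle cells. The summed epithelial markers came to 2902 FPKM in treated and 1622 FPKM in vehicle MKN45. EPCAM, KRT8, KRT18 and CLDN4 had the higher value in treated cells, whereas CDH1 was at 112.8 FPKM in treated and 127.3 FPKM in vehicle cells and KRT19 at 152.7 FPKM in treated and 204.5 FPKM in vehicle cells. Their part in the results for that line was not tested. All 3 blood and all 3 endothelial markers were below 0.1 FPKM in every library.

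In vehicle, HGC27 was poor in most of this system. EGFR was at 0.259 FPKM in HGC27 against 9.31 FPKM in MKN45, 36.0 times less. ERBB3 was at 0.506 FPKM in HGC27 against 22.8 FPKM in MKN45, and ERBB2 at 4.33 FPKM against 13.2 FPKM, so ERBB2 made up 85.0% of the summed FPKM of the 3 receptors in HGC27 and 29.2% in MKN45. The ligands were low in HGC27 too. HBEGF was at 0.581 FPKM in vehicle HGC27 against 7.50 FPKM in vehicle MKN45, and TGFA at 0.233 FPKM against 4.36 FPKM. AREG had 4 reads in vehicle HGC27, or 0.0755 FPKM, against 2.59 FPKM in vehicle MKN45. EREG had no read in vehicle HGC27, which allows up to 0.0163 FPKM at 3 reads, and stood at 2.51 FPKM in vehicle MKN45. The inhibitor ERRFI1, at 6.01 FPKM in HGC27 against 53.3 FPKM in MKN45, headed the 9 genes in both vehicle libraries. ADAM17 differed least, at 3.81 FPKM in HGC27 against 7.18 FPKM in MKN45.

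Differences between libraries are given as log2(FPKM + 1), which understates the change of low genes, and a gene counts as measured in a pair of libraries at a mean of at least 1 FPKM. On that scale 8 of the 9 genes were at least 2-fold lower in vehicle HGC27 than in vehicle MKN45, against 17.4% of 13031 genes measured, and none was higher, against 14.3%. Of the 8, EGFR, ERBB3, AREG, EREG, HBEGF and TGFA passed the minimum only through MKN45 and had to differ, so nothing is read from that count.

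**Figure D1:**
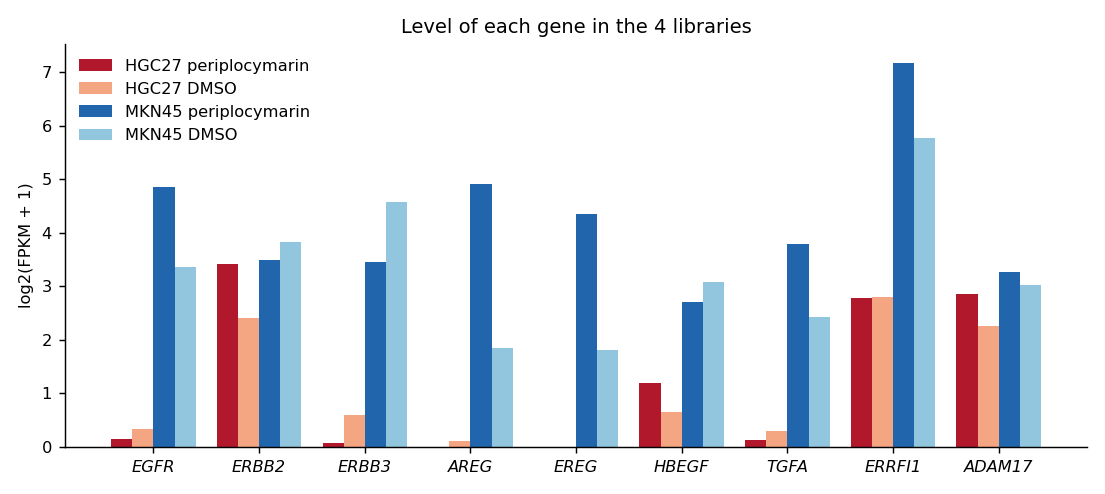
Level of each gene as log2(FPKM + 1) in the 4 libraries, 1 bar a library and no replicates. EREG and AREG have bars close to 0 in HGC27, and ERRFI1 is the highest bar in both MKN45 libraries.

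In MKN45 the receptors differed in direction. EGFR was at 28.1 FPKM in the treated library against 9.31 FPKM in vehicle, 3.02-fold higher (2.92 to 3.12). ERBB3 was at 10.0 FPKM in the treated library against 22.8 FPKM in vehicle, 2.28-fold lower (2.19 to 2.38). ERBB2 was at 10.3 FPKM against 13.2 FPKM, 1.29-fold lower (1.23 to 1.35). The sum of the 3 receptors hardly differed, at 48.4 FPKM in treated and 45.4 FPKM in vehicle MKN45, but its makeup did. EGFR took 58.1% of that sum in treated and 20.5% in vehicle MKN45, and ERBB3 took 20.7% in treated and 50.3% in vehicle. In the treated library ERBB2 and ERBB3 had overlapping counting intervals, whereas in vehicle ERBB3 stood above ERBB2 and ERBB2 above EGFR with no overlap.

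Of the ligands in MKN45, 3 were higher after treatment and 1 was lower. AREG (amphiregulin) was at 29.1 FPKM in treated cells against 2.59 FPKM in vehicle, 11.2-fold higher (9.48 to 13.3), on 1139 and 157 reads. EREG (epiregulin) was at 19.5 FPKM in treated cells against 2.51 FPKM in vehicle, 7.75-fold higher (7.05 to 8.52). TGFA (transforming growth factor alpha) was at 12.9 FPKM against 4.36 FPKM, 2.94-fold higher (2.70 to 3.21). The heparin-binding ligand HBEGF went the other way, at 5.57 FPKM in treated cells against 7.50 FPKM in vehicle, 1.35-fold lower (1.19 to 1.52). HBEGF was thus the highest of the 4 ligands in vehicle and the lowest in treated MKN45. The 4 ligands summed to 67.0 FPKM in treated and 17.0 FPKM in vehicle MKN45, 3.95 times as much. AREG and EREG made up 43.4% and 29.1% of that sum in the treated library, and 15.3% and 14.8% in vehicle. AREG and EREG could not be told apart by counting error in vehicle, and AREG and EGFR could not in the treated library.

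The remaining regulators in MKN45 were ERRFI1 and ADAM17. ERRFI1 was at 143 FPKM in treated cells against 53.3 FPKM in vehicle, 2.68-fold higher (2.61 to 2.75), and its level exceeded that of 97.8% of the 11148 genes at 1 FPKM or more in the treated library. ADAM17 was at 8.62 FPKM against 7.18 FPKM, 1.20-fold higher (1.15 to 1.26), a difference of 0.23 on the log2(FPKM + 1) scale that came to 0.033 with library totals alone.

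**Figure D2:**
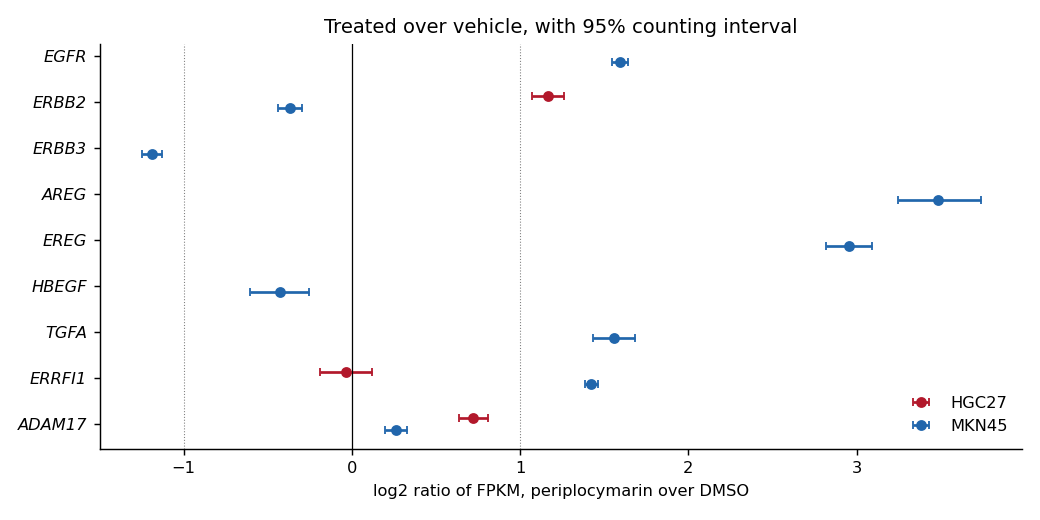
Log2 ratio of FPKM, periplocymarin over DMSO, for each gene measured in MKN45 (9 genes, blue) and in HGC27 (3 genes, red), with 95% counting intervals and dotted lines at 2-fold. In MKN45 AREG lies farthest to the right at 3.49 and ERBB3 farthest to the left at -1.19.

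On the log2(FPKM + 1) scale all 9 genes were measured in MKN45, 5 of them were at least 2-fold higher after treatment (EGFR, AREG, EREG, TGFA and ERRFI1), against 8.21% of 11895 genes, and ERBB3 alone was at least 2-fold lower, against 8.94%. The members' median difference was 1.37, beside 0.07 over all genes measured. AREG had the 9th highest difference of the 11895 genes, 3.07, and EREG the 25th highest, 2.54. The genes were chosen with such values in view, so these places describe them and are no evidence of a shared response.

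In HGC27 the receptor best represented, ERBB2, differed most between treated and vehicle cells among the measured genes. ERBB2 was at 9.70 FPKM in the treated library against 4.33 FPKM in vehicle, 2.24-fold higher (2.10 to 2.40). ADAM17 was at 6.28 FPKM in treated cells against 3.81 FPKM in vehicle, 1.65-fold higher (1.55 to 1.75), a difference of 0.60 on the log2(FPKM + 1) scale and of 0.31 with library totals alone. ERRFI1 stood at 5.86 FPKM in treated and 6.01 FPKM in vehicle HGC27, and the interval of its ratio, 0.875 to 1.09, includes no change. ERBB2, at a difference of 1.01, was thus the only one of the 3 measured genes at least 2-fold higher, against 9.72% of 11821 genes, and it missed 2-fold at 0.96 with quantile normalization and at 0.71 with library totals alone. None of the 3 was at least 2-fold lower, against 10.4% of genes. Their median difference was 0.60, beside 0.11 over all genes measured.

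The other 6 genes stayed below a mean of 1 FPKM in HGC27, so their ratios rest on few reads. ERBB3 had 16 reads in the treated library (0.0580 FPKM) and 191 reads in vehicle (0.506 FPKM), 8.72-fold lower (5.23 to 15.6). EGFR had 43 reads in treated and 133 reads in vehicle HGC27, 2.26-fold lower (1.59 to 3.26). TGFA had 11 reads in treated and 37 reads in vehicle cells, 2.46-fold lower (1.23 to 5.34). HBEGF was the one ligand with a higher value after treatment in HGC27, at 1.28 FPKM in treated cells against 0.581 FPKM in vehicle, 2.20-fold higher (1.56 to 3.13). AREG had no read in treated HGC27, which allows up to 0.0776 FPKM at 3 reads, and 4 reads in vehicle, so a difference was not detectable at this depth. EREG had no read in either HGC27 library. The 4 ligands together came to 1.37 FPKM in treated and 0.889 FPKM in vehicle HGC27, of which HBEGF was 93.1% in treated and 65.3% in vehicle cells.

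**Figure D3:**
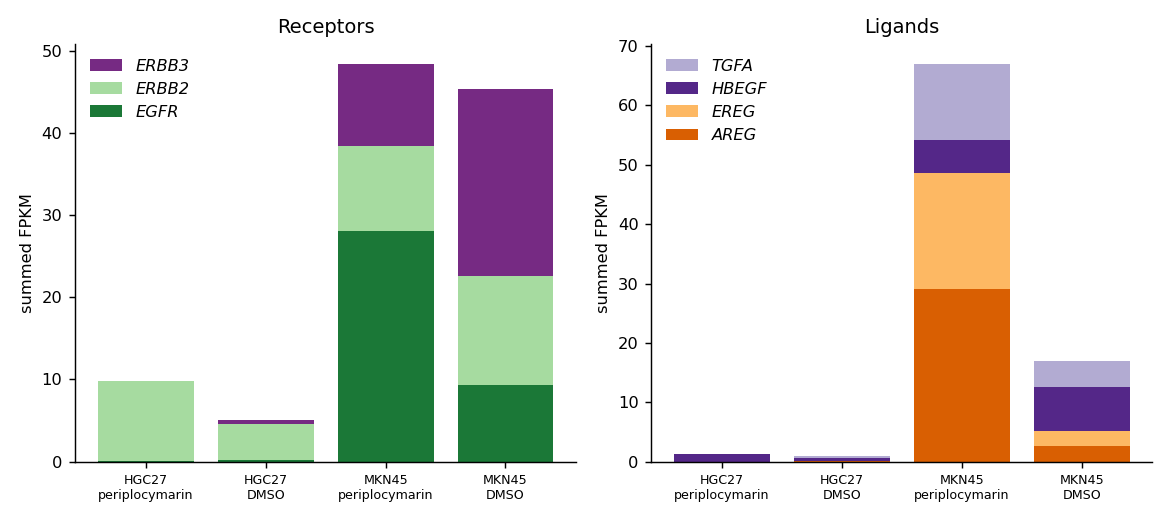
Summed FPKM of the 3 receptors (left) and of the 4 ligands (right) in each library, 1 bar a library, coloured by gene. The receptor bars of MKN45 are of similar height, 48.4 FPKM treated and 45.4 FPKM in vehicle, while its ligand bars differ, 67.0 FPKM treated and 17.0 FPKM in vehicle.

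Over both lines, treated was compared with vehicle in limma with cell line as a block, in which each arm has the 2 lines as its units. None of the 9 genes passed (limma, Benjamini-Hochberg adjusted p under 0.05), against 3.43% of 12353 genes higher and 3.17% lower. At an unadjusted p under 0.05 there were 3 of 9, ERBB3, AREG and EREG, a share close to the 28.4% of all genes tested. Their fitted log2 folds, each with limma's moderated standard error, were -0.81 ± 0.31 for ERBB3, 1.48 ± 0.59 for AREG and 1.27 ± 0.51 for EREG, with limma adjusted p = 0.122, 0.140 and 0.141. ERBB3 was lower in 2 of 2 lines, while AREG and EREG had a higher value in MKN45 alone. With limma-voom on the recovered reads 2 of the 9 passed, ERBB3 and EREG (limma adjusted p = 0.0355 and 0.0138), in a fit that called 4.10% of all genes higher and 6.04% lower. With a pseudocount of 0.1 only ERBB3 passed (limma adjusted p = 0.0435), and 6.07% of all genes were called higher and 5.91% lower. EREG has no read in HGC27, so its pooled value rests on MKN45. The other 6 fitted folds lay between 0.08 for HBEGF and 0.69 for ERRFI1, and the smallest of their limma adjusted p was 0.238. The fit has 1 residual degree of freedom a gene and cannot test whether the response to treatment differs between the lines.

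The other genes of the pathway were taken from 5 lists of 67 genes. Of the remaining ligands and receptor, none of 8 reached a mean of 1 FPKM in either line. Betacellulin (BTC), a ligand of EGFR and ERBB4, was the nearest, at 0.158 FPKM in treated against 1.78 FPKM in vehicle MKN45, 11.3-fold lower (5.98 to 23.9) on 10 and 174 reads. NRG1, a neuregulin and ligand of ERBB3, had no read in MKN45 and at most 0.0652 FPKM in HGC27. ERBB4 was at 0.463 FPKM in treated and 0.431 FPKM in vehicle HGC27 and had no read in MKN45. With all 11 ligands counted, the sum was 67.7 FPKM in treated and 19.6 FPKM in vehicle MKN45, and 2.08 FPKM in treated and 1.85 FPKM in vehicle HGC27.

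Among 7 tested genes of ligand shedding 2 passed as higher over both lines and none as lower, against 3.43% and 3.17% of all genes tested. The 2 were ADAM9 and ADAM10, both membrane metalloproteases. Both averaged 10 FPKM or more, and the fit of the 4453 genes at that floor called 1055 higher and 199 lower. ADAM10, which in mouse cells releases EGF and betacellulin, was at 15.1 FPKM in treated against 4.77 FPKM in vehicle HGC27, and at 41.5 FPKM in treated against 20.2 FPKM in vehicle MKN45. It rose by 1.24 ± 0.29 on the log2(FPKM + 1) scale (limma adjusted p = 0.0387). ADAM9 was at 18.1 FPKM in treated against 5.65 FPKM in vehicle HGC27, and at 86.0 FPKM in treated against 40.3 FPKM in vehicle MKN45, a rise of 1.30 ± 0.28 (limma adjusted p = 0.0336). Both calls were lost with quantile normalization (limma adjusted p = 0.0798 for ADAM10 and 0.0666 for ADAM9). They were also lost with no low-value filter and without the line block, settings in which no gene at all passed. ADAM10 and ADAM9 each had a higher level than ADAM17 in all 4 libraries.

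No gene passed among 12 genes listed as negative regulators, 26 adaptors and relay kinases or 12 genes of endocytosis and sorting. Their median fitted log2 folds were 0.37, 0.26 and 0.32, beside 0.06 over all genes tested. The first list also holds the deubiquitinase USP8, so its name does not give the role of every gene. At an unadjusted p under 0.05 in limma there were 2 negative regulators, 7 adaptors and relay kinases and 2 genes of endocytosis and sorting, against 28.4% of all genes tested. With limma-voom, which called 4.10% of all genes higher and 6.04% lower, 1 negative regulator passed, the ubiquitin ligase CBLB, and 1 gene of the sorting list, STAM. Within HGC27, 12 of 57 measured genes of the lists were at least 2-fold higher and 1 was lower, against 9.72% and 10.4% of all genes measured. Within MKN45 2 of 55 were higher and none was lower, against 8.21% and 8.94%. The lists hold genes on both sides of a floor of 10 FPKM, and the shares differ above it. At that floor 795 of 4181 genes were at least 2-fold higher in HGC27 and 150 lower. In MKN45 611 of 4390 were higher and 210 lower. The lists were not compared with genes of like level. The 1 lower gene of the lists in HGC27 was GAB2, a scaffold that links receptors to phosphatidylinositol 3-kinase. GAB2 was at 0.457 FPKM in treated against 11.9 FPKM in vehicle HGC27, 26.0-fold lower (20.6 to 33.2). In MKN45 GAB2 was at 1.39 FPKM in treated and 1.64 FPKM in vehicle cells. It did not pass over both lines, with a fitted log2 fold of -1.64 ± 0.57 (limma adjusted p = 0.101), but passed with library totals alone and with limma-voom (limma adjusted p = 0.0230 and 0.0468).

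**Figure D4:**
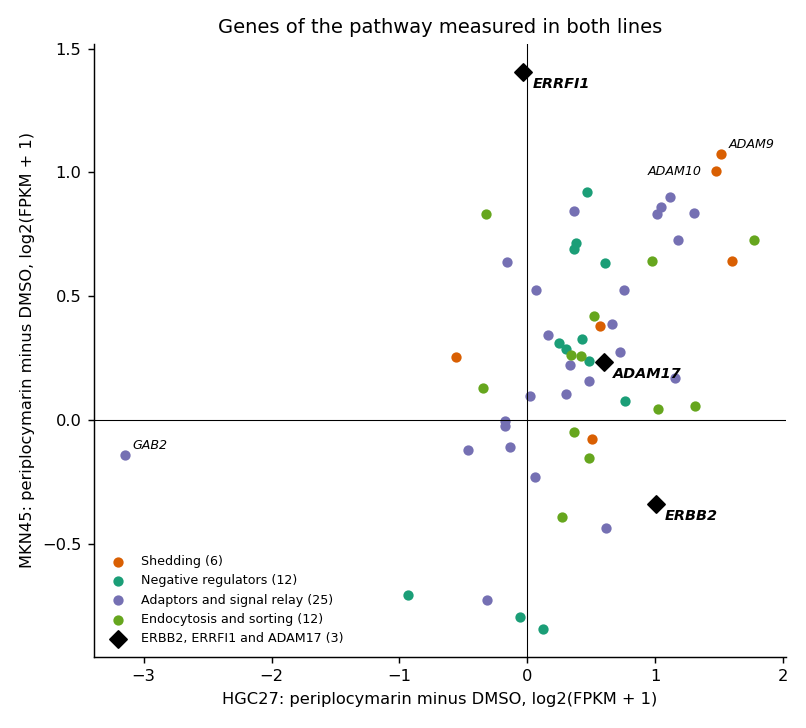
Periplocymarin minus DMSO as log2(FPKM + 1) in HGC27 (x axis) and MKN45 (y axis) for 55 listed genes of the pathway measured in both lines, coloured by list, with ERBB2, ERRFI1 and ADAM17 as black diamonds. Of the listed genes 3 are named: ADAM9 and ADAM10 are the 2 past a difference of 1 in both lines, and GAB2 lies far to the left at -3.14.

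In GRCh38 with GENCODE 29, EREG lies on chromosome 4 from 74365143 to 74388751 and AREG from 74445134 to 74455009, both on the plus strand, with no other gene model over them. Within 500 kb of the AREG start, on either side, the annotation has 11 protein-coding genes, of which 6 were measured in MKN45. Of these 6, AREG and EREG were the 2 at least 2-fold higher on the log2(FPKM + 1) scale. The chemokine genes CXCL2 and CXCL3 differed by 0.84 and 0.80 on that scale, and MTHFD2L, between them and EREG, by 0.35. As plain ratios of FPKM, CXCL2 was 3.48-fold higher, at 1.62 FPKM in treated and 0.466 FPKM in vehicle cells, and CXCL3 2.05-fold higher, at 4.93 FPKM in treated and 2.41 FPKM in vehicle cells. On the other side of AREG, PARM1 was at 0.533 FPKM in treated against 3.49 FPKM in vehicle MKN45, a difference of -1.55. BTC, below the minimum, lies between AREG and PARM1, and EPGN, the ligand gene next to EREG, had no read in any library. This window was chosen after the values of AREG and EREG were known. Genes of chromosome 4 beyond its edges were not examined by position, so it does not show where the higher values end.

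**Figure D5:**
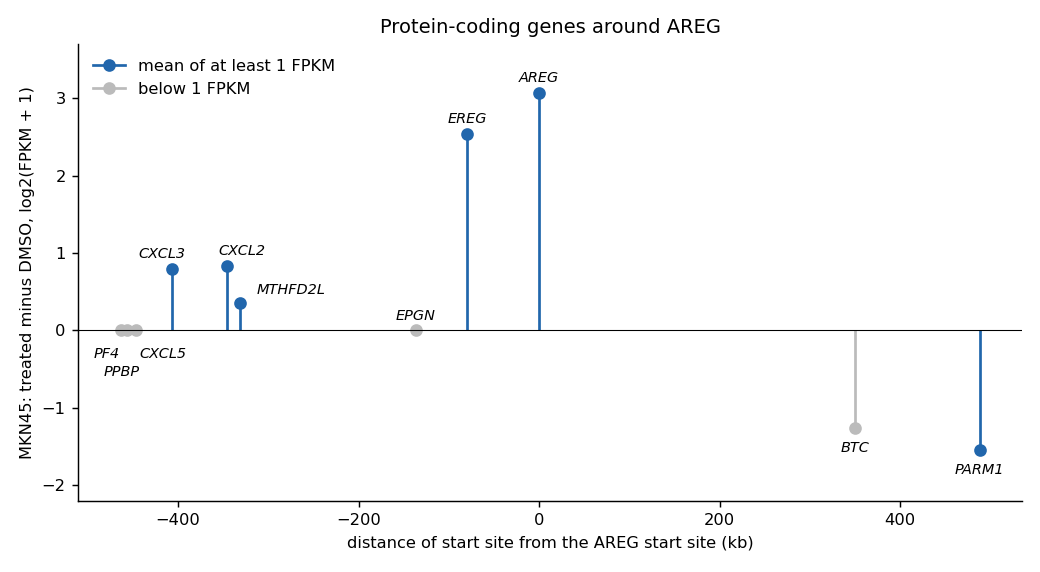
Periplocymarin minus DMSO in MKN45 as log2(FPKM + 1) for the 11 protein-coding genes within 500 kb of the AREG start, by distance of their start sites in kb, with genes below a mean of 1 FPKM in grey. AREG at 3.07 and EREG at 2.54 stand above 0, and BTC and PARM1 lie below it.

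Genes with the most similar pattern were sought by Euclidean distance over the 4 libraries of log2(FPKM + 1) after centring each gene, over the 10898 protein-coding genes that averaged 1 FPKM or more. The nearest to AREG were the chemokine CXCL1, at a distance of 0.31, the inducible cyclooxygenase PTGS2, at 0.36, and EREG, at 0.45. CXCL1 was at 30.5 FPKM in treated and 3.49 FPKM in vehicle MKN45 and had no read in HGC27. For EGFR they were DUSP5, a phosphatase of ERK, at 0.14, ERRFI1 at 0.23 and PRAG1 at 0.31. DUSP5 was at 24.0 FPKM in treated and 8.12 FPKM in vehicle MKN45. For ERBB3 they were RAB20, PCDH1 and STARD10, at 0.15 to 0.27, and for HBEGF they were NEDD9, TCF7L2 and DDR1, at 0.21 to 0.28. With 4 libraries, many genes share a pattern this simple, and the distances describe these libraries only.

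The remaining positions in GRCh38 bear on how far some counts can be trusted, since no strand setting is stated. EGFR (chromosome 7, 55019021 to 55211628, plus strand) overlaps EGFR-AS1, and TGFA (chromosome 2, 70447280 to 70554193, minus strand) holds TGFA-IT1, neither of which reached 1 FPKM. ERBB3 (chromosome 12, 56076799 to 56103505, plus strand) and ERRFI1 (chromosome 1, 8004404 to 8026308, minus strand) each overlap 1 noncoding model below 1 FPKM. The model of ERBB2 (chromosome 17, 39687914 to 39730426, plus strand) overlaps MIEN1 and PGAP3 on the minus strand, and that of ADAM17 (chromosome 2, 9488486 to 9556732, minus strand) overlaps IAH1 on the plus strand. These 3 overlapping genes reached 1 FPKM, so reads of ERBB2 and ADAM17 may not be told apart from them. HBEGF (chromosome 5, 140332843 to 140346631, minus strand) has no overlapping model.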

How the data were processed

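The authors deposited 1 table of 62710 Ensembl genes by 4 libraries, with columns matched to samples by library name. Of tools and builds, fastp 2.0, HISAT2 2.1.0 and hg38 appear in the submitters' processing notes, without role or order. The sources used here do not give the counter, annotation or strand setting. The unit is named in no header, and the values fit FPKM, which the authors deposited. Whole reads were recovered from the steps between values and GENCODE 29 or searched lengths: within 0.0001 reads, 49.9% of 30457 genes above 0 were whole at the GENCODE 29 length, and with searched lengths 20298 of 20299 genes above 0 in at least 3 libraries. For genes above 0 in 2 libraries, EREG among them, lengths were searched within a factor of 2 of GENCODE 29. The implied library sizes divided by recovered totals gave 0.947, 1.20, 0.862 and 1.01 for treated HGC27, vehicle HGC27, treated MKN45 and vehicle MKN45, taken as a composition factor in the deposited values. Read recovery and the fit were tested on simulated data.

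The test over both lines was limma 3.58.1 (R 4.3.3, eBayes with trend) on log2(FPKM + 1), blocked by cell line, for the 12353 genes averaging 1 FPKM and 10 reads or more. Treated and vehicle libraries are paired by their line, as the labels give it. Nothing says that the libraries came from separate cultures beyond their labels. Within a line, ratios have exact Clopper-Pearson intervals from the reads of both libraries, and levels have exact Poisson intervals. Alternatives were a pseudocount of 0.1, no low-value filter, library totals alone, a floor of 10 FPKM, quantile normalization, no line block, and limma-voom on recovered reads scaled by a trimmed mean of M values. The 9 members were all named. From the other lists the text names genes past the test, genes past 2-fold in the same direction in both lines, and the gene with the largest difference in each line. BTC, NRG1, ERBB4 and the neighbours of AREG were added after their values were seen. Members and lists were chosen with earlier results of these data known. Promoter windows came from RefSeq, which held 8 of the 9 members. Single results of some listed genes are not reported here.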

Additional observations from a re-analysis of the deposited data

Results flagged for a closer look

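ERBB2 and ERRFI1 had treated minus vehicle differences of opposite sign in the 2 lines, each line having 1 treated and 1 vehicle library, though the one of ERRFI1 in HGC27 was close to 0. ERBB2 was higher by 1.01 after treatment in HGC27 and lower in MKN45, with a difference of -0.34 on the log2(FPKM + 1) scale, so the lines stood 1.35 apart. ERRFI1 differed by -0.03 in HGC27, within counting error, and by 1.41 in MKN45, so HGC27 minus MKN45 was -1.44. The difference between lines was not tested for either gene, because 4 libraries leave no spread to test it against.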

How the results depend on the processing

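In MKN45 the counts of 5 members at least 2-fold higher and 1 lower held under a pseudocount of 0.1, quantile normalization, library totals alone and no low-value filter, and at a floor of 10 FPKM 4 of 6 were higher and 1 lower. The 1 higher member in HGC27, ERBB2, was lost (0 higher) under quantile normalization, library totals alone and the floor of 10 FPKM, where none was left. Library totals alone moved the median of all measured genes by -0.28 in HGC27 and -0.18 in MKN45. Over both lines members past the threshold were 0, but 1 with a pseudocount of 0.1 and 2 with limma-voom. The fitted log2 fold of HBEGF, 0.08, was -0.091 with library totals alone and -0.13 with limma-voom. Without the line block (no replicate block) no gene passed, 0 higher and 0 lower, as with no low-value filter; at an unadjusted p under 0.05 limma had 696 and 4306 genes in these settings, beside 3511.

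Against 424 genes higher and 392 lower over both lines (52.0% higher), there were 750 and 730 with a pseudocount of 0.1, 180 higher with quantile normalization (34.0% higher), 1156 lower with library totals alone (23.7%), 1055 and 199 at a floor of 10 FPKM (84.1%), and 746 lower with limma-voom (40.4%). In HGC27, against 1149 higher and 1228 lower, there were 1847 lower with a pseudocount of 0.1, 738 higher with quantile normalization, 487 and 1935 with library totals alone, and 150 lower at the floor of 10 FPKM. In MKN45, against 977 and 1064, there were 1726 lower with a pseudocount of 0.1, 565 higher with library totals alone, and 611 and 210 at the floor of 10 FPKM. Between the vehicle libraries, against 1859 and 2262, that floor left 423 and 790, and 2 members lower. The floor tests fewer genes by construction, yet over both lines it called more genes higher. The median difference of genes at that floor was 0.48 in HGC27 and 0.35 in MKN45, beside 0.11 and 0.07 for all genes measured. The cause of this and of the other moves was not tested. Leaving out a library was not possible with 1 a group.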
